A study of Mus musculus with 6 samples.

Results

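The genes described here are the receptors and ligands of 2 migration axes, Cxcr4, Ackr3 and Cxcl12 of the chemokine axis and Aplnr and Apln of the apelin axis. They were taken by symbol, and all 5 are among the 24054 genes of each gene table and passed the filter on low counts, which left 14539 genes. RNA was sequenced from 3 sorted populations of a mouse embryonic stem cell (ESC) line with Foxa2-Venus on one allele and Sox17-Cherry on both, so that all populations carry both fusions. The d0 cells were undifferentiated ESCs negative for both reporters. The d3F cells, called mesendoderm in the study, were positive for Venus and negative for Cherry after 3 days in endoderm differentiation medium with 1 ng/ml Wnt3a and 10 ng/ml Activin A. The d5FS cells, called definitive endoderm, were positive for both reporters after 5 days in the same medium. Each population had 2 replicates, 6 samples in all, which the study's methods call independent, and all samples come from 1 cell line grown in culture without the neighbouring tissues of an embryo.

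Cxcr4 is a G protein-coupled receptor that binds the chemokine Cxcl12 and guides migrating cells, and its surface protein is widely used to sort definitive endoderm. Ackr3 is an atypical chemokine receptor that also binds Cxcl12, couples to arrestins and removes the ligand from its surroundings. Aplnr is a G protein-coupled receptor with a pair of peptide ligands, apelin (Apln) and Elabela (Apela), and it takes part in the movement of mesendoderm cells at gastrulation and in heart and vessel development. Apela is not among the 5 genes but is given beside them as the other ligand of Aplnr.

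On mm10 with GENCODE M21, Cxcr4 lies on chromosome 1 from 128588199 to 128592293 on the minus strand, and Ackr3 on chromosome 1 from 90203980 to 90216751 on the plus strand. Cxcl12 lies on chromosome 6 from 117168535 to 117181367 on the plus strand. Aplnr lies on chromosome 2 from 85136225 to 85139923 on the plus strand, and Apln on chromosome X from 48025146 to 48034853 on the minus strand. None of these 5 genes overlaps another annotated gene. Apela lies on chromosome 8 from 65028417 to 65037336 on the minus strand, and 1 annotated noncoding transcript, Gm45886, overlaps it on the same strand, so reads of both cannot be told apart with certainty.

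The 250 bases upstream of the start were read from RefSeq promoter windows on GRCm38.p6, which matched 4 of the 5 genes, all but Aplnr, and Apela. Those of Cxcr4 and Apln are shown because both genes rose from d0 to d3F, that of Ackr3 as the other Cxcl12 receptor, and that of Apela as the other Aplnr ligand. Each sequence runs 5′ to 3′ on the gene's own strand, and capitals mark the matches to the motifs searched.
Cxcr4, chr1:128592300-128592549, minus strand: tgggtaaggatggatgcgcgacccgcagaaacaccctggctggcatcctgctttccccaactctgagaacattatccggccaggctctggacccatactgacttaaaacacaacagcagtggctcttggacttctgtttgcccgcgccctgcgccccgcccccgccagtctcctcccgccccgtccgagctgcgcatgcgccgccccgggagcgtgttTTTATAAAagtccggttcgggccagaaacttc
Ackr3, chr1:90203730-90203979, plus strand: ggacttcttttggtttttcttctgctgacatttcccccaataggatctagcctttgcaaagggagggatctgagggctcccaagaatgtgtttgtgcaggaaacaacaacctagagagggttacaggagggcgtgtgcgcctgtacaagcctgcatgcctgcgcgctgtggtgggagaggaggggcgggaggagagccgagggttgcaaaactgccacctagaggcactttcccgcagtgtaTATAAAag
Apln, chrX:48034854-48035103, minus strand: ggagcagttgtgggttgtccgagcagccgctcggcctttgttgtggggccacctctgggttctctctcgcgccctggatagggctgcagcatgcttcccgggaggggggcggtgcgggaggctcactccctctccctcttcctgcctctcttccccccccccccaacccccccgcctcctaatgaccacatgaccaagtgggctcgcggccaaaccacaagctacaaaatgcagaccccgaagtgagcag
Apela, chr8:65037337-65037586, minus strand: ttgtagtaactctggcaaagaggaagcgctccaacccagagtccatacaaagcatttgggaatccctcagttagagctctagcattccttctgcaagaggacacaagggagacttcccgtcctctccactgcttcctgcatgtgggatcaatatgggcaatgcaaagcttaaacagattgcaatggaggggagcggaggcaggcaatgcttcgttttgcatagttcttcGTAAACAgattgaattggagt
The motifs were searched on both strands. The Foxa search took the letters TGTTTAC and, as a variant of them, the letters TATTTAC. For Gata factors the letters were AGATAA and, as the variant, the letters TGATAA, and for Sox factors they were ATTGTT. The T-box search took AGGTGTGA with AGGTGTTA as its variant, and the search for Foxh1 took AATCCACA with AATACACA as its variant. The promoter windows of Cxcr4, Ackr3, Cxcl12 and Apln hold 0 matches to these 5 motifs. Of all 32851 windows, 5.76% hold the Foxa letters, 16.6% the Gata letters, 9.42% the Sox letters, 1.51% the T-box letters and 1.61% the Foxh1 letters. The Apela window holds 1 match, GTAAACA, which is the Foxa letters on the opposite strand and begins at position -21 from the start. TATAAA, added after the windows had been read, is found in Cxcr4 at -30 on the same strand and at -32 on the opposite strand, where the matches overlap, and in Ackr3 at -8, and 12.4% of all windows hold it. The GC content is 61.2% in Cxcr4, 64.4% in Cxcl12, 54% in Ackr3, 65.2% in Apln and 48% in Apela, with a median of 52.4% over all windows. The number of CpG pairs is 19 in Cxcr4, 14 in Cxcl12, 12 in Apln, 7 in Ackr3 and 5 in Apela, against a median of 6.

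The expected counts, estimates of how many read pairs came from a gene, summed to between 16457728.93 and 22768686.01 per sample. Foxa2 and Sox17, the genes used for the sort, had 0.176 and 0.629 CPM in d0, 59.5 and 9.63 CPM in d3F and 48.0 and 78.4 CPM in d5FS, each a mean of 2 samples. In this and all later sentences, CPM means counts scaled to a common library size with the TMM factor, which corrects for differences in composition between libraries. TPM, a share of transcripts corrected for length, is used wherever different genes are compared. Genes listed without a coding (RefSeq NM) transcript took between 54.3% and 76.9% of a sample's TPM but between 11.7% and 16.6% of its counts. Apela is among these genes although it encodes a peptide. Deposited TPM values of the same gene in different samples thus also move with that share. Changes between populations were therefore tested on counts. A gene was called where the Benjamini-Hochberg adjusted p of edgeR over all 14539 genes was under 0.05 and the absolute log2 fold change was above 1. In bulk samples, fewer cells expressing a gene and less of its RNA per cell cannot be told apart.

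From d0 to d3F, 3 of the 5 genes rose, namely the receptors Cxcr4 and Aplnr and the ligand Apln, while Ackr3 and Cxcl12 did not pass the test. Of all tested genes, 4.7% were called in this comparison with 2.8% called higher and 1.9% called lower. Over the step from d3F to d5FS, 1 of the 5 genes changed, with Apln falling to a few counts, against 1.54% of all tested genes, with 1.08% called higher and 0.461% called lower. Between d0 and d5FS, Cxcr4 and Aplnr were higher in d5FS, 2 of the 5, against 22.8% of all tested genes called with 12.4% called higher and 10.4% called lower. The 3 comparisons share samples in pairs, so their results are not independent. The median log2 fold change of the 5 genes was 3.86, -1.22 and 0.96 in the 3 comparisons, where the medians over all tested genes were -0.01, 0.01 and 0.02.

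**Figure D1:**
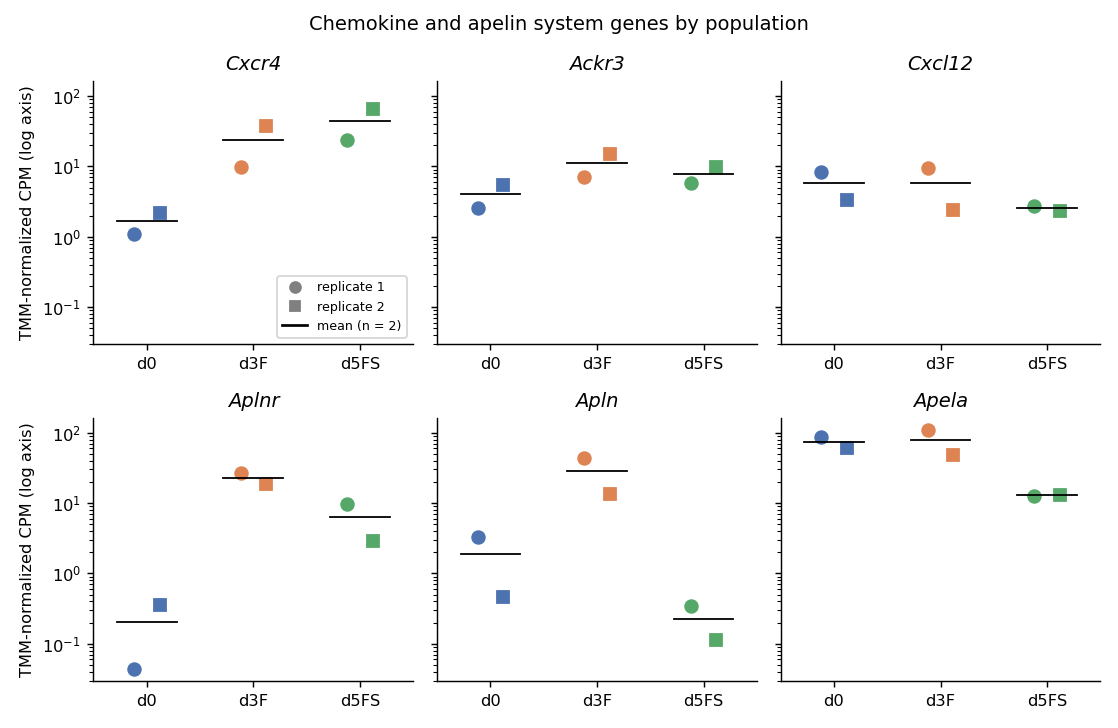
TMM-normalized CPM (log axis) of the 5 genes and Apela in each sample of d0, d3F and d5FS, with circles for replicate 1, squares for replicate 2 and lines for the mean of 2. The mean of Cxcr4 was highest in d5FS although its d3F and d5FS samples overlap, both d3F samples of Aplnr and Apln lie above all others, and Apln had 6 and 2 counts in d5FS.

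Cxcr4 had 25 and 43 counts in the d0 samples, 244 and 751 in the d3F samples and 411 and 1133 in the d5FS samples. This corresponds to 1.10 and 2.20 CPM in d0, 9.91 and 37.9 CPM in d3F and 23.3 and 64.9 CPM in d5FS. Both d3F and both d5FS samples were above both d0 samples, while the d3F and d5FS samples overlapped, since d3F replicate 2 exceeded d5FS replicate 1. Between samples of the same replicate number, Cxcr4 was higher in d5FS than in d3F in both pairs. The mean level rose from 1.65 ± 0.783 CPM in d0 to 23.9 ± 19.8 CPM in d3F (SD, n = 2 each), a log2 fold change of 3.86 (SE 0.786, edgeR adjusted p = 0.0331). This call was lost without d0 replicate 1 (3.43, edgeR adjusted p = 0.0717), without d0 replicate 2 (4.45, edgeR adjusted p = 0.0729) and without d3F replicate 2 (2.60, edgeR adjusted p = 0.152). In d5FS the mean was 44.1 ± 29.4 CPM (SD, n = 2), which was higher than in d0 by a log2 fold change of 4.74 (SE 0.813, edgeR adjusted p = 0.00692), and this call was kept in each of the 6 fits that left out 1 sample, with 3.83 without d5FS replicate 2 and 5.33 without d0 replicate 2. The step from d3F to d5FS was not called, with a log2 fold change of 0.88 and a 95% interval of -0.68 to 2.45 (edgeR adjusted p = 0.538), and with the replicate block it was 0.99 (edgeR adjusted p = 0.0734).

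Ackr3 had 58 and 107 counts in d0, 173 and 301 in d3F, with 102 and 171 in d5FS. Its levels were 2.54 and 5.48 CPM in d0, 7.02 and 15.2 CPM in d3F and 5.79 and 9.80 CPM in d5FS. Both later populations lay above d0 in both samples, and d3F and d5FS overlapped. From d0 to d3F the fitted change was 1.47 on the log2 scale (SE 0.561), which was not called (edgeR adjusted p = 0.181) but passed with the replicate number as a block (edgeR adjusted p = 0.0356). Between d0 and d5FS it was 0.96 (SE 0.559, edgeR adjusted p = 0.240), and with the block it was 1.01 and passed (edgeR adjusted p = 0.0439). Between d3F and d5FS it was -0.51 (SE 0.548, edgeR adjusted p = 0.671). Among all tested genes, 9.08%, 6.31% and 29.5% were called with the block from d0 to d3F, d3F to d5FS and d0 to d5FS.

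Cxcl12, the ligand of Cxcr4 and Ackr3, was not called in any comparison, with or without the block. It had 190 and 65 counts in d0, 230 and 48 in d3F, with 48 and 41 in d5FS, or 8.33 and 3.33 CPM, 9.34 and 2.43 CPM, and 2.72 and 2.35 CPM. The samples of d0 and d3F overlapped, those of d3F and d5FS overlapped, and both d5FS samples lay below both d0 samples. Between d0 and d3F the log2 fold change was 0.01, with a 95% interval of -1.54 to 1.57 (edgeR adjusted p = 0.994). It was -1.22 from d3F to d5FS (SE 0.703, edgeR adjusted p = 0.406) and -1.20 from d0 to d5FS (SE 0.703, edgeR adjusted p = 0.242). The intervals are wide enough to hold changes of more than 1 on the log2 scale.

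Aplnr was nearly undetected in d0, with 1 and 7 counts, and had 661 and 364 counts in d3F, with 173 and 50 in d5FS. The levels were 0.0439 and 0.359 CPM in d0, 26.8 and 18.4 CPM in d3F and 9.81 and 2.87 CPM in d5FS. The samples of the 3 populations did not overlap, with d3F above d5FS and d5FS above d0. From d0 to d3F the log2 fold change was 6.83 (SE 0.916, edgeR adjusted p = 0.0103), and from d0 to d5FS it was 4.99 (SE 0.885, edgeR adjusted p = 0.00792). With 8 counts in d0 in all, the ratio of summed counts scaled for library size was 122 for d3F over d0 (95% interval 61.7 to 283) and 33.6 for d5FS over d0 (16.8 to 78.8), and these intervals cover counting error only. The size of the change rests on the d0 sample used, since the log2 fold change from d0 to d3F was 5.95 without d0 replicate 1 and 8.84 without d0 replicate 2, and from d0 to d5FS 4.11 and 7.003. Without d5FS replicate 1 and replicate 2, that from d0 to d5FS was 3.84 and 5.63, and both calls were kept in all of these fits. The fall from d3F to d5FS did not pass, with a log2 fold change of -1.83 (SE 0.674, edgeR adjusted p = 0.205).

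Apln, the apelin ligand, had 75 and 9 counts in d0, 1063 and 267 in d3F, with 6 and 2 in d5FS. In CPM it was at 3.29 and 0.461 in d0, 43.2 and 13.5 in d3F, with 0.340 and 0.115 in d5FS. The samples of the 3 populations did not overlap, with d3F highest and d5FS lowest. The rise from d0 to d3F was 3.90 on the log2 scale (SE 0.904, edgeR adjusted p = 0.0495). It lay close to the threshold and was lost in 5 of the 6 fits without 1 sample, all but the one without d0 replicate 1, with edgeR adjusted p between 0.0744 and 0.199. Apln then fell by 6.92 on the log2 scale to d5FS (SE 1.12, edgeR adjusted p = 0.0307), and the summed counts gave 131 times more in d3F than in d5FS (95% counting interval 66.4 to 305). Without d3F replicate 1 or without either d5FS sample this call was lost, with log2 fold changes of -5.86, -7.89 and -6.36. From d0 to d5FS the log2 fold change was -3.02 (SE 1.09, edgeR adjusted p = 0.0773), which was not called, and with the replicate block it was -2.86 and passed (edgeR adjusted p = 0.00845). It also passed without d0 replicate 2 (-3.81, edgeR adjusted p = 0.0236), and was -1.01 without d0 replicate 1 (edgeR adjusted p = 0.526).

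Apela, the other Aplnr ligand, had 1981 and 1196 counts in d0, 2718 and 961 in d3F, with 221 and 230 in d5FS. Unlike Apln it was already at 86.9 and 61.3 CPM in d0, with 110 and 48.6 CPM in d3F and 12.5 and 13.2 CPM in d5FS. It was not called from d0 to d3F, with a log2 fold change of 0.10 (SE 0.406, edgeR adjusted p = 0.931). It fell by 2.63 on the log2 scale from d3F to d5FS (SE 0.435, edgeR adjusted p = 0.0316) and by 2.53 from d0 to d5FS (SE 0.433, edgeR adjusted p = 0.00693). The call from d3F to d5FS was lost without d3F replicate 1 and without either d5FS sample. Apln and Apela were thus both called lower in d5FS than in d3F. Over the same step the Aplnr estimate was also negative, at -1.83, but was not called. Whether the genes differ in this change was not tested.

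**Figure D2:**
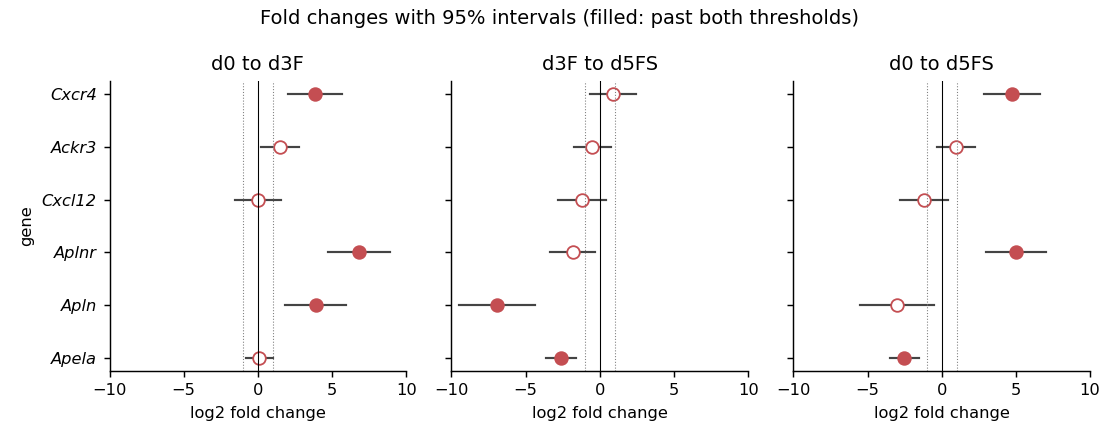
Fitted log2 fold changes (points) with 95% intervals (lines) of the 5 genes and Apela in 3 comparisons, where filled points passed both thresholds and dotted lines mark -1 and 1. Cxcr4, Aplnr and Apln lie above 0 from d0 to d3F, and Apln lies at -6.92 from d3F to d5FS.

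A count of populations whose samples do not overlap is a weaker statement than a call with 2 samples a group. From d0 to d3F the samples of 4 of the 5 genes did not overlap, where 51% of all tested genes did not. Between d3F and d5FS this held for Aplnr and Apln, 2 of the 5, against 52.2% of all tested genes. Between d0 and d5FS it held for all 5, against 62.7%. Among genes in general such separation was common, and the calls above rest on the fit.

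Compared per length, the order of the 5 genes differed between populations. In d0 the deposited TPM were 1.67 and 0.32 for Cxcl12, 0.91 and 0.91 for Ackr3, 0.45 and 0.42 for Cxcr4, 0.73 and 0.05 for Apln and 0.01 and 0.03 for Aplnr. Ackr3 exceeded Cxcr4 and Apln in both d0 samples and Aplnr was lowest in both, while Cxcl12 and Apln overlapped with their neighbours in the order. In d3F the TPM were 4.13 and 9.46 for Cxcr4, 9.85 and 1.84 for Apln, 5.37 and 2.20 for Aplnr, 2.56 and 3.32 for Ackr3 and 1.97 and 0.32 for Cxcl12. Here Cxcr4, Apln and Aplnr overlapped, Cxcr4 was above Ackr3 in both samples and Cxcl12 was lowest in both. In d5FS the TPM were 6.63 and 11.88 for Cxcr4, 1.45 and 1.58 for Ackr3, 1.34 and 0.25 for Aplnr, 0.47 and 0.25 for Cxcl12 and 0.05 and 0.01 for Apln. Cxcr4 was highest and Apln lowest in both d5FS samples, and Aplnr and Cxcl12 were not separated. Apela was far above all of them in d0, at 74.19 and 24.24 TPM, and in d3F, at 96.18 and 25.15 TPM, but in d5FS, at 7.42 and 5 TPM, it was not separated from Cxcr4.

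Ratios within a sample do not depend on the scaling of that sample. The ratio of Cxcr4 to Ackr3 per length was 0.491 and 0.459 in d0, 1.61 and 2.85 in d3F, with 4.58 and 7.53 in d5FS, so Ackr3 was the more abundant Cxcl12 receptor transcript in d0 and Cxcr4 in the other populations. The 3 populations did not overlap in this ratio, although Cxcr4 alone overlapped between d3F and d5FS. The ratios are given as a description, with no test. The ratio of Cxcr4 to its ligand Cxcl12 was 0.267 and 1.29 in d0, 2.09 and 29.8 in d3F, with 14.2 and 47.5 in d5FS, with overlap between d3F and d5FS, and it was higher in d5FS for both replicate numbers.

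In the apelin axis, the ratio of Aplnr to Apln per length was 0.0117 and 0.682 in d0, 0.545 and 1.19 in d3F, with 25.3 and 21.9 in d5FS, and the d5FS samples lay above all others. The ratio in d5FS rests on 6 and 2 Apln counts, which gave counting intervals of 11.4 to 69.8 and 5.76 to 186. Against Apela, the ratio of Aplnr was 0.000115 and 0.00135 in d0, 0.0558 and 0.0876 in d3F, with 0.181 and 0.0505 in d5FS, so Apela stayed above Aplnr per length in all 6 samples. The ratio of Apela to Apln was lowest in d3F, at 9.77 and 13.6, against 102 and 503 in d0 and 140 and 434 in d5FS, and Apela was the more abundant ligand transcript throughout.

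**Figure D3:**
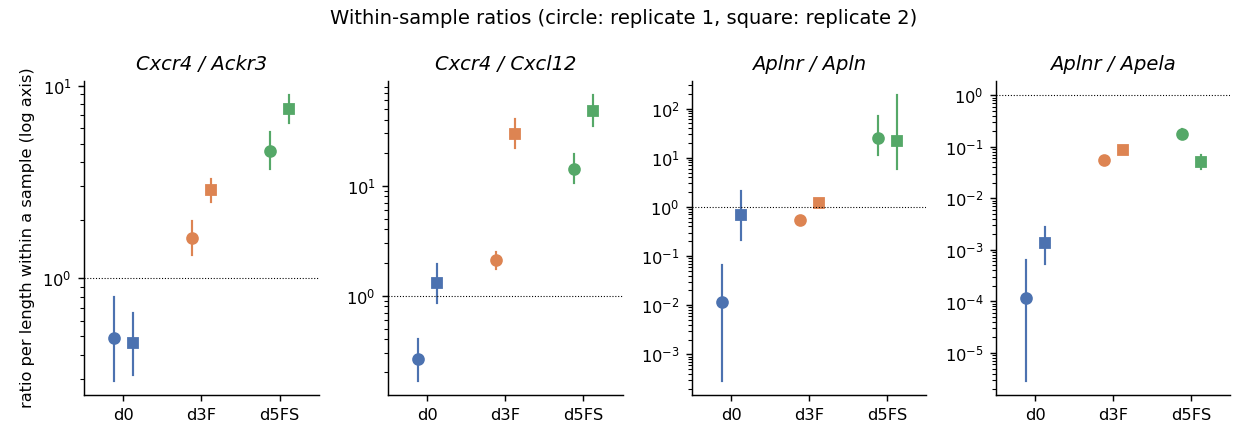
Ratios per length between 2 genes within each sample (log axes, each panel with its own range), with lines for 95% counting intervals, circles for replicate 1, squares for replicate 2 and a dotted line at 1. Cxcr4 over Ackr3 separates all 3 populations, and Aplnr over Apln is 25.3 and 21.9 in d5FS.

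The replicates of a population differed for these genes in a repeated direction. Cxcr4 and Ackr3 were higher in replicate 2 in all 3 populations, as were 24.7% of all tested genes. Cxcl12 and Apln were higher in replicate 1 in all 3, as were 23.1% of all tested genes. Aplnr was higher in replicate 2 in d0 and in replicate 1 in d3F and d5FS. The log2 difference of replicate 2 minus replicate 1 was 0.95, 1.93 and 1.47 for Cxcr4 in d0, d3F and d5FS, and -2.60, -1.67 and -1.04 for Apln. For comparison, 90% of all tested genes lay between -1.49 and 1.34 in d0, between -1.11 and 1.01 in d3F and between -1.25 and 1.12 in d5FS. The study's list of libraries gives the name mRNA to 1 library per population and the name totRNA to its partner, without a replicate number, and the part of that naming in these differences was not tested.

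**Figure D4:**
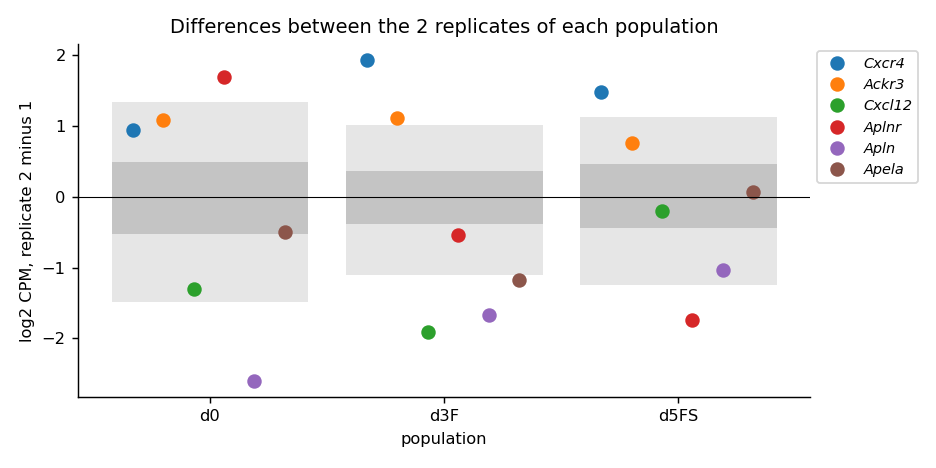
Log2 CPM of replicate 2 minus replicate 1 in each population for the 5 genes and Apela (points), over the 5% to 95% range (light) and the 25% to 75% range (dark) of all 14539 tested genes. Outside the light range lie Apln (-2.60) and Aplnr (1.68) in d0 and Cxcr4 (1.47) and Aplnr (-1.74) in d5FS. In d3F, Cxcr4 (1.93), Cxcl12 (-1.90), Ackr3 (1.10), Apln (-1.67) and Apela (-1.18) lie outside it.

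Genes whose profile over the 6 samples was most like that of each gene were ranked by the root mean square difference of log2 CPM after centring, as a description. For Apln the nearest was T (0.85, r = 0.987), followed by Alox15, Penk and the near-identical pair Sprr2a1 and Sprr2a2, whose reads cannot be separated. For Aplnr the nearest were Cd93 (0.67, r = 0.979), the growth factor Fgf8, the BMP antagonist Chrd, Scel and Tnc. For Cxcr4 they were Rgma (0.28, r = 0.992), Gata1, Gdf2, Car4 and Cbln1. The nearest to Cxcl12 were Rgs9bp (0.15, r = 0.983), Sertm1, Dtx4, Ick and Tcfl5, and to Ackr3 Zscan2 (0.18, r = 0.974), Ppargc1b, Cml1, Clybl and Mvd. The points of these correlations share populations and libraries, and r was taken over 6 samples. The lists of nearest genes of Cxcr4 and of Apln shared 0 genes.

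The marker lists were set beside these levels. All 8 definitive endoderm markers, Foxa2 and Sox17 of the sort included, were called higher in d5FS than in d0 (12.4% of all tested genes). All 6 mesendoderm markers were called higher in d3F than in d0 (2.8% of all tested genes). Of the 9 extraembryonic endoderm markers, 1 was called from d0 to d3F (4.7% of all tested genes) and 7 were called higher in d5FS than in d0 (12.4% of all tested genes), and the part of such cells in the Cxcr4 level was not tested. Aplnr and Apln are also genes of blood vessel cells, and the 10 endothelial markers summed to between 16.2 and 25.4 TPM in all samples, of which Egfl7 gave between 13.03 and 19.99 TPM. Of the 7 endothelial markers tested, 4 were called lower in d5FS than in d0 and 2 lower in d3F than in d0. The shares of all tested genes called lower were 10.4% and 1.9%. Means fell from d0 to d3F for Pecam1 (20.7 to 1.75 CPM), Tek (8.55 to 0.603 CPM), Esam (3.06 to 0.0708 CPM) and Cd34 (5.23 to 0.395 CPM). The d0 samples were far apart for Tek (14.7 and 2.36 CPM) and Cd34 (8.82 and 1.64 CPM). Kdr was highest in d3F, as Aplnr was, with 2.07 and 7.58 CPM there, against 1.10 and 0.615 CPM in d0 and 1.19 and 0.229 CPM in d5FS, and it was not called in any comparison. Cdh5, a defining endothelial gene, had 7 and 27 counts in d3F, against 1 and 2 in d0 and 0 and 8 in d5FS, and Emcn had at most 1 count in any sample. The part of endothelial cells in the Aplnr and Apln levels was not tested. Cxcl12 is abundant in fibroblasts, and the ESCs had been thawed on feeder cells. Per the study's methods, they were depleted of these feeders and passaged on gelatine before differentiation. The 10 fibroblast markers summed to 3.51 and 1.42 TPM in d0, 6.22 and 7.62 TPM in d3F and 24.1 and 12.3 TPM in d5FS. Of the 8 tested, 4 were called higher in d5FS than in d0 (12.4% of all tested genes). The collagen genes Col1a2 and Col3a1 had means of 2.01 and 2.14 CPM in d0, 27.7 and 4.87 CPM in d3F and 133 and 38.1 CPM in d5FS, and Postn had 0.464, 4.10 and 18.7 CPM. Col1a1 also rose, with means of 4.81, 16.5 and 22.5 CPM in d0, d3F and d5FS. The means of Thy1 (2.28, 0.847 and 0.740 CPM) and Twist2 (0.940, 0.724 and 0.398 CPM) fell instead. Dcn stayed low, at 0.402, 0.278 and 0.571 CPM, and Pdgfrb was highest in d3F, at 6.06 CPM. Fap was at 0 in all samples and Lum at 0.02 TPM or less. The means of the fibroblast markers thus did not all move in the same direction, but 0 of the 8 tested were called lower in any comparison. The part of fibroblasts in the Cxcl12 level was not tested. The 6 blood markers summed to between 1.34 and 9.08 TPM.

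Beyond the 5 genes, 77 partners of the 2 axes were found in the tables, of which 66 were tested. From d0 to d3F, 4 rose and 4 fell, 12.1% of those tested, where the background was 4.7%. From d3F to d5FS, 1 rose and 2 fell, or 4.55% against 1.54%. From d0 to d5FS, 14 rose and 7 fell, or 31.8% against 22.8%. With the replicate block the counts were 16, 7 and 29 of the 66, where 9.08%, 6.31% and 29.5% of all tested genes were called. The median log2 fold changes of the partners were 0.17, 0.10 and 0.23, close to those of all genes, and nothing particular to the list was read from these shares.

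Among 12 genes around the apelin receptor, 7 were tested. Pcsk5, a proprotein convertase, had 0.439 and 0.923 CPM in d0, 20.99 and 113 CPM in d3F and 27.9 and 21.7 CPM in d5FS, and had log2 increases of 6.63 from d0 to d3F (edgeR adjusted p = 0.0103) and 5.19 from d0 to d5FS (edgeR adjusted p = 0.00573). Pcsk6, another convertase, had 20.6 and 32.1 CPM in d0, 7.19 and 3.18 CPM in d3F and 3.18 and 2.52 CPM in d5FS, and fell by 2.34 and 3.20 in these comparisons (edgeR adjusted p = 0.0337 and 0.00515). The convertases therefore moved in opposite directions. Furin, a convertase that can process proapelin, rose by 1.79 from d0 to d5FS (edgeR adjusted p = 0.0235). Agt, the angiotensinogen gene, had 2 counts in d0 and 34 in d5FS, a ratio of 20.5 with a counting interval of 5.26 to 176 and a call from d0 to d5FS (edgeR adjusted p = 0.0267). Agtr1a, the angiotensin receptor related in sequence to Aplnr, stayed between 0.284 and 0.568 CPM and did not pass the filter.

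For the handling of Cxcl12 and its receptors, 11 of 12 genes were tested. Sdc4, a heparan sulfate proteoglycan, fell by 1.70 (log2) between d0 and d3F (edgeR adjusted p = 0.0495). From d0 to d5FS, Ramp3, a receptor activity-modifying protein, fell by 2.81 (edgeR adjusted p = 0.00602), and its relative Ramp2 and the membrane protease Mmp14 rose by 1.70 and 1.60 (edgeR adjusted p = 0.0447 and 0.0115). Dpp4, a peptidase that inactivates Cxcl12, had 3.20 and 11.7 CPM in d0, 0.122 and 1.36 CPM in d3F and 16.3 and 18.8 CPM in d5FS. Its d3F samples lay below all others, and neither step was called (edgeR adjusted p = 0.083 and 0.0635), but both passed with the block (edgeR adjusted p = 0.0292 and 0.0175). Mif, a cytokine that also binds Cxcr4, had between 264 and 796 CPM in the 6 samples and was not called in any comparison.

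Of 25 genes for receptor coupling and desensitization, 23 were tested. The regulators of G protein signalling Rgs5, Rgs4 and Rgs16 rose from d0 to d3F, by 3.66 on the log2 scale for Rgs4 (edgeR adjusted p = 0.0317) and 2.66 for Rgs16 (edgeR adjusted p = 0.0287). Rgs5 had 2 and 0 counts in d0, 94 and 98 in d3F, with 67 and 56 in d5FS, and the ratio of d3F to d0 was 91.5 (95% counting interval 24.97 to 761, edgeR adjusted p = 0.0103). In d5FS all 3 remained higher than in d0, with log2 fold changes of 6.05 for Rgs5, 3.89 for Rgs4 and 3.44 for Rgs16. Gnai1, an inhibitory G protein subunit, fell by 2.18 from d0 to d5FS (edgeR adjusted p = 0.0103).

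Among 25 tested migration effectors of 28, Vav1 and Ptk2b fell from d0 to d3F, by 3.54 and 1.68 on the log2 scale (edgeR adjusted p = 0.0472 and 0.0491). Vav1, a Rac exchange factor of blood cells, had 35 and 35 counts in d0 and 0 and 1 in d5FS, a ratio of d0 to d5FS of 58.0 (95% counting interval 10.1 to 2325). The exchange factors Vav3 and Prex2 went in opposite directions from d0 to d5FS, with a rise of 2.43 for Vav3 (edgeR adjusted p = 0.0165) and a fall of 2.89 for Prex2 (edgeR adjusted p = 0.0174). Jak2, a kinase, rose by 2.04 (edgeR adjusted p = 0.0184). Between d3F and d5FS, Pik3cb, a phosphoinositide 3-kinase subunit, rose by 2.10 (edgeR adjusted p = 0.0453) and the Rac exchange factor Tiam1 fell by 1.81 (edgeR adjusted p = 0.0364). Both of these calls were lost without d3F replicate 1 and without either d5FS sample.

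The other chemokine system genes were mostly at or near 0, and 18 of 64 passed the filter. Of these, 4 are Cmtm genes, which encode membrane proteins related to a chemokine-like factor and are not chemokine receptors. From d0 to d3F only Cmtm8 of these 18 was called (5.56%, against 4.7% of all tested genes), with a rise of 2.61 on the log2 scale (edgeR adjusted p = 0.0151). Between d3F and d5FS 0 of 18 were called by edgeR (1.54% of all tested genes), where 5 had an unadjusted p under 0.05 and DESeq2 called 2. From d0 to d5FS, 7 rose and 1 fell, 44.4% of the 18, against 22.8% of all tested genes (12.4% higher and 10.4% lower). Some of the 18, such as Ccl17, passed the filter only through a later population where they were high. Nothing particular to the list was therefore read from this share. Cxcl11, a ligand of Ackr3 as well as of Cxcr3, had 0.877 and 0.154 CPM in d0, 10.3 and 4.50 CPM in d3F and 30.4 and 5.27 CPM in d5FS, and rose by 5.06 from d0 to d5FS (edgeR adjusted p = 0.0131). Its d5FS samples were far apart, with replicate 2 close to the d3F samples. Ccl17 was listed at 0 counts in each d0 sample and had 72 and 30 in d5FS, at least 41.0-fold higher when the floor is 3 counts over the d0 samples (edgeR adjusted p = 0.0068). Cx3cl1 rose by 2.58 (edgeR adjusted p = 0.0168) and Cxcl14 fell by 3.18 (edgeR adjusted p = 0.0477). The chemokine receptors Cxcr5 and Ackr4 rose by 2.75 (edgeR adjusted p = 0.0361) and 1.94 (edgeR adjusted p = 0.0491), Cxcr5 from 5 counts in d0 to 29 in d5FS, and Cmtm8 and Cmtm3 rose by 3.90 and 1.84.

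**Figure D5:**
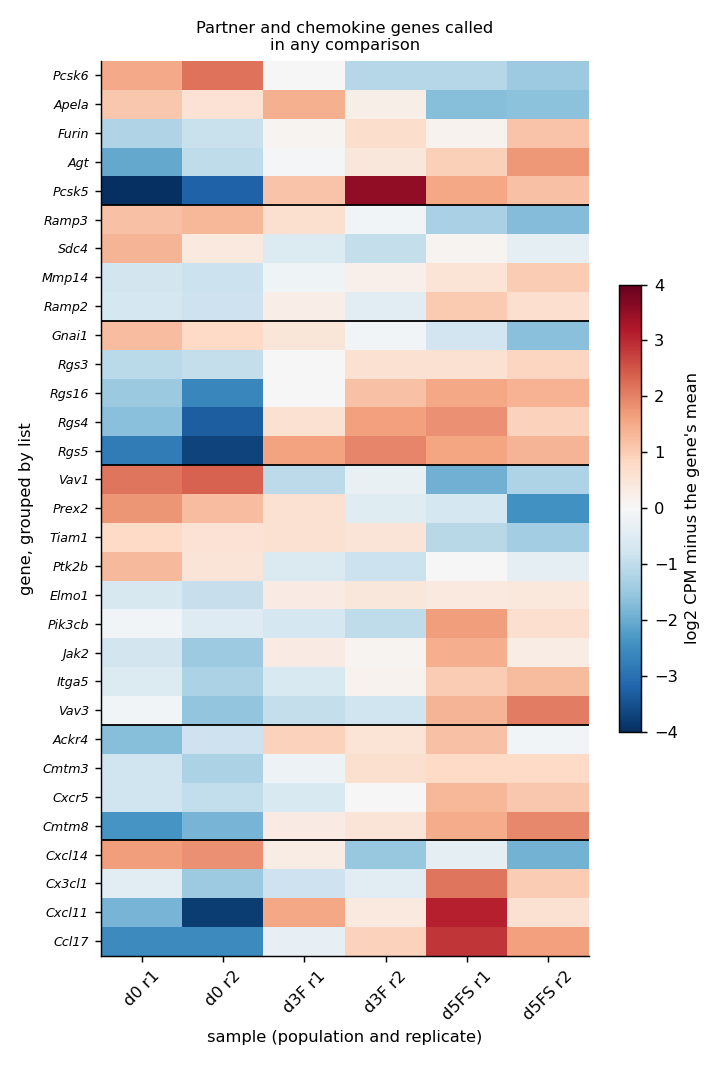
Log2 CPM minus the gene's mean over the 6 samples for the 31 partner and chemokine genes called in any comparison, grouped by list from apelin receptor relatives at the top to chemokines at the bottom, with red above and blue below the mean. Rgs5, Pcsk5, Rgs4 and Cxcl11 lie below their mean in both d0 columns, and Vav1 and Pcsk6 above it.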

How the data were processed

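RNA-seq of d0, d3F and d5FS cells was used, with samples assigned to populations from their labels. Per the labels and the study's methods, ribosomal RNA was removed from total RNA before sequencing of paired ends of 100 bases, the alignment to mm10 used STAR, and the submitters' processing notes name RSEM (versions not given in the sources used here). The study's list of libraries also uses the names mRNA and totRNA, and how these names relate to this preparation was not resolved here. The authors deposited, for each sample, expected counts per gene (not normalized), TPM (per length, scaled to a fixed sum), FPKM (per length and depth, not used) and effective lengths. The members and gene lists were chosen with earlier results of these data known.

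Expected counts were rounded and analysed with edgeR 4.0.16 in R 4.3.3 (filterByExpr, TMM, glmQLFit and glmQLFTest, prior count 0.125, all 6 samples, 3 residual degrees of freedom). Calls required an adjusted p under 0.05 (Benjamini-Hochberg) and an absolute log2 fold change above 1, and the script was tested on simulated data. Log2 CPM used a prior count of 2. Ratios per length used expected counts over effective lengths. Intervals of count ratios are exact (Clopper-Pearson, 95%) and cover counting error only. Nearest genes, at most 4 called genes per list and comparison, and Apela, Agtr1a, Mif and Dpp4 were named by rule, and Furin was named outside the rule after its values were seen. Motifs were searched in RefSeq promoter windows.

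Differences between replicates 1 and 2 correlated between populations (r = 0.314, 0.324 and 0.278 for d0 with d3F, d0 with d5FS and d3F with d5FS). The replicate numbers of the labels were therefore used as a block in an alternative fit. The main fit had no block, so its calls do not pair the samples. The alternatives were DESeq2 1.42.0 (size factors, Wald tests), upper-quartile factors, the replicate block, no filter, at least 10 counts in every sample, a fit of only the populations compared, each sample left out, and, chosen after seeing the data, only genes with a coding transcript. That last set leaves out Apela.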

Additional observations from a re-analysis of the deposited data

How the results depend on the processing

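Aplnr from d0 to d3F and from d0 to d5FS and Cxcr4 from d0 to d5FS kept their calls in every alternative that gave a value, and Aplnr and Apln gave none with at least 10 counts in every sample. With each sample left out in turn, the log2 fold change from d0 to d3F lay between 2.60 and 4.53 for Cxcr4, -1.26 and 0.83 for Cxcl12, 0.82 and 2.13 for Ackr3, 2.84 and 5.92 for Apln, and 5.95 and 8.84 for Aplnr. From d3F to d5FS it lay between -0.039 and 2.15 for Cxcr4, -1.88 and 0.051 for Cxcl12, -0.98 and 0.14 for Ackr3, and -7.89 and -5.86 for Apln, and from d0 to d5FS between -3.98 and -1.01 for Apln, 3.84 and 7.003 for Aplnr, 3.83 and 5.33 for Cxcr4, and 0.49 and 1.62 for Ackr3. For Cxcl12 from d0 to d3F, where the change was near 0, the sign turned with DESeq2 size factors (-0.019), upper-quartile factors (-0.011), at least 10 counts in every sample (-0.0099), both DESeq2 Wald tests (-0.020) and the replicate block (-0.086). Apln from d0 to d3F lost its call with upper-quartile factors (3.87) and with only the populations compared (3.90). Without a filter, Ackr3 from d0 to d3F (1.49), Aplnr from d3F to d5FS (-1.85) and Apln from d0 to d5FS (-3.03) passed. With the replicate block, Ackr3 from d0 to d3F (1.47) and d0 to d5FS (1.01) and Apln from d0 to d5FS (-2.86) passed, and it changed no other call of the 5 genes. The DESeq2 Wald test (-3.07) and the fit without d0 replicate 2 (-3.81) called Apln from d0 to d5FS. The cause of these changes was not tested.

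For the counts of all genes, partners and other chemokine genes called from d0 to d3F (683, 8 and 1 in the text), no filter gave 1933, 17 and 5, the DESeq2 Wald test 1516, 13 and 4, that against a log2 fold change of 1 384, 3 and 2, and the block 1320, 16 and 3. At least 10 counts in every sample gave 357 and 3 for all genes and partners, and only the populations compared 430 and 2. From d3F to d5FS (224, 3 and 0), no filter gave 1423, 10 and 1, the DESeq2 Wald test 1104, 8 and 2, the block 918, 7 and 2, and only the populations compared 529, 5 and 1, and at least 10 counts in every sample gave 144 genes. From d0 to d5FS (3313, 21 and 8), the DESeq2 test against 1 gave 1035, 8 and 3, and at least 10 counts in every sample gave 5 other chemokine genes. Without 1 sample, the counts of all genes, partners and other chemokine genes ranged from 97 to 977, 2 to 6 and 0 to 1 from d0 to d3F, from 0 (without d3F replicate 1) to 496, 0 to 5 and 0 to 1 from d3F to d5FS, and from 1047 to 3037, 12 to 21 and 2 to 5 from d0 to d5FS.

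Deposited TPM of Ackr3 rescaled by the TMM factors was 0.915 in d0 and 1.78 in d5FS. TPM recomputed over genes with a coding transcript, chosen after seeing the data, averaged 1.23, 19.4 and 37.1 for Cxcr4 in d0, d3F and d5FS, 2.40, 2.68 and 1.35 for Cxcl12, 2.60, 8.02 and 5.91 for Ackr3, 0.883, 13.8 and 0.117 for Apln, and 0.0670, 9.38 and 2.86 for Aplnr. Of the 5 nearest genes, a prior count of 0.5 shared 3 for Cxcr4, 3 for Apln and 2 for Aplnr, and ranking by r shared 0, 1, 1, 2 and 0 for Cxcr4, Cxcl12, Ackr3, Apln and Aplnr. The 1 to 9 Aplnr and Apln counts of some samples limit the precision of their changes.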
